A study of Mus musculus with 9 samples.

Results

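The S100 calcium-binding proteins described here are 8 mouse genes: S100a1, S100a4, S100a6, S100a8, S100a9, S100a10, S100a11 and S100a13. They are 8 of the 53713 rows of the deposited gene table, and 8 of its 19 rows whose symbol starts with S100. They were followed across cell classes of mouse liver by single-cell RNA sequencing, in which each captured poly-A transcript carries a unique molecular identifier (UMI), so that PCR copies are counted once. All animals were C57BL/6J mice of 6 to 8 weeks. Mice labelled CluKO, for the clusterin gene Clu, received recombinant human clusterin together with carbon tetrachloride (CCl4), a toxin that scars the liver; how long is not in the labels. Wild-type mice received CCl4 for 0, 2 or 4 weeks. The 6 samples labelled CluKO share 1 matrix whose barcodes carry no sample name, the design text gives 3 mice for them, and they count here as 1 pooled sample. The labels do not say whether Clu was removed in every cell or only in some. The rows of the 3 wild-type matrices are not paired with gene names in the files, so the S100 genes were not analysed here in wild-type liver.

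Background: S100 proteins are small EF-hand proteins that pair into dimers and bind calcium. S100A8 and S100A9 form calprotectin, the abundant cytosolic complex of neutrophils, which binds zinc and manganese and acts on TLR4 and RAGE once released. S100A4 and S100A6 mark motile and activated cells, S100A10 (p11) joins annexin A2 in a complex that holds plasminogen at the cell surface, and S100A11 binds annexin A1. S100A1 regulates calcium handling in muscle, and S100A13 takes part in the release of FGF1 and IL-1 alpha.

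All 8 genes lie on chromosome 3 of GRCm38, in 2 groups. In the GENCODE annotation, S100a1 lies at chr3:90511034-90514392 on the minus strand, S100a13 at chr3:90514435-90524581 on the plus strand, S100a4 at chr3:90603771-90606045 on the plus strand and S100a6 at chr3:90612882-90624181 on the plus strand. S100a8 lies at chr3:90668978-90670035 on the plus strand and S100a9 at chr3:90692632-90695721 on the minus strand. S100a11 lies at chr3:93520488-93526287 and S100a10 at chr3:93555080-93564643, both on the plus strand. S100a4 shares 302 of its 584 exonic bases (51.7%) with Gm42674 on the same strand, and Gm42674 has 0 UMIs in the kept cells. The counting of reads in such an overlap is not described in the labels, so the level of S100a4 is uncertain to that extent.

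The promoter sequences of 2 pairs are shown, chosen by how their levels correlated across cell classes. The levels of the first pair did so closely, with limits given further below. Those of the second pair, whose GENCODE starts lie 43 bases apart on opposite strands, did not. They are RefSeq sequences of GRCm38.p6, 5′ to 3′ on the gene's own strand, and cover 250 bases before the RefSeq start and the first 30 bases from it. Capitals mark matches, on either strand, to TATAAA (the TATA box), TTNNGNAA (a C/EBP-type motif), GAGGAA (a PU.1-type motif) and TGANTCA (an AP-1-type motif). The S100a8 window is chr3:90668821-90669100 on the plus strand and the S100a9 window chr3:90695692-90695971 on the minus strand. The S100a1 window is chr3:90514301-90514580 on the minus strand and the S100a13 window chr3:90514185-90514464 on the plus strand.
S100a8: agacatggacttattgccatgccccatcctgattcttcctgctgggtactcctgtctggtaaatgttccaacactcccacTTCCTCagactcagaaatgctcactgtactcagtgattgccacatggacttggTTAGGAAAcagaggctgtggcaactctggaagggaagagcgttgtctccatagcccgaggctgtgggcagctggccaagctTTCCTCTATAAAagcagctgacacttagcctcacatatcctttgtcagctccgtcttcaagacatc
S100a9: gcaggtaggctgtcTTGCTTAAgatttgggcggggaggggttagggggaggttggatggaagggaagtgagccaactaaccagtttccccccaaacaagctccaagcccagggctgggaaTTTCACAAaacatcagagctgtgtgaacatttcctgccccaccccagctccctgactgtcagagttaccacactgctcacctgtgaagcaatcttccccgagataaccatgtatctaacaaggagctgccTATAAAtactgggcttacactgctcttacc
S100a1: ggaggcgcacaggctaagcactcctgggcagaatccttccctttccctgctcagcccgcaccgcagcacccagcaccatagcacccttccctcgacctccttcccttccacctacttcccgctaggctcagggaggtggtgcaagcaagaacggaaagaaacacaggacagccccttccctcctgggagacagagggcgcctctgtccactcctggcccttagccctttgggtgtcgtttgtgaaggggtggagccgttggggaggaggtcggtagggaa
S100a13: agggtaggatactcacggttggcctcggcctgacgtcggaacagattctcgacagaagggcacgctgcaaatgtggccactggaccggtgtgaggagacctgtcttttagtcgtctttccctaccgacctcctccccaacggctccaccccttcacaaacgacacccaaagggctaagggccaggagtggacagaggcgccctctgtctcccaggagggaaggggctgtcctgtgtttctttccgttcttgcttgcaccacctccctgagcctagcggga

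Over windows of 300 bases, from 250 before to 50 after the start, 7 of the 8 genes had an entry, all except S100a10. S100a8 held TATAAA 30 bases before its start, 1 C/EBP-type match and 2 PU.1-type matches, of which one directly abuts the TATA box. S100a9 held 2 C/EBP-type matches, and its only TATAAA lies at the annotated start itself. S100a4 held TATAAA 31 bases before its start and 1 PU.1-type match, and S100a11 held 2 AP-1-type matches and 1 PU.1-type match. S100a1, S100a6 and S100a13 held no match to any of the 4 motifs, and no match overlapped a match to another motif. Of all 32851 windows, 13.6% held TATAAA, 40.7% the C/EBP-type, 28.3% the PU.1-type and 7.81% the AP-1-type motif, so the C/EBP-type and PU.1-type matches are common in windows of this length. The windows of S100a1 and S100a13 share 204 bases.

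Depth and cell classes were as follows. The matrix labelled CluKO held 4694 cells and 28912707 UMIs with a median of 4804 UMIs per cell, against 7739 to 20215 cells and medians of 4009 to 5070 in the wild-type matrices. Of 4616 cells kept, 3996 fell into 24 classes by the number of distinct marker genes with a UMI, 381 passed the gates of several classes and were left out, and 239 passed none. Class names are shorthand for cells that pass such a gate. No S100 gene served as a gating marker. Clu itself gave 13751 UMIs in the kept cells, at 2006 CPM (UMIs scaled to a total of 1e+06) in hepatocytes and 1546 CPM in mesothelial cells. Where the deletion lies in Clu is not given, so the pooled cells are called the matrix labelled CluKO. Median UMIs per cell ran from 2805 in late neutrophils to 10273 in progenitors. With 1 pooled sample there are no replicates and no test. Levels are CPM of the counts summed over the cells of a class, with exact Poisson 95% intervals that cover counting error only and not the spread between mice.

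Among the 20 classes of at least 50 cells, S100a8 and S100a9 were highest in immature neutrophils, S100a11 also in immature neutrophils, S100a4 and S100a13 in monocytes, and S100a1, S100a6 and S100a10 in mesothelial cells. In smaller classes, S100a6 and S100a11 were higher still in the 45 late neutrophils, and S100a10 and S100a13 in the 40 T and NK cells. The highest of the 20 levels stood 759 times above the median level over the classes for S100a8 and 719 times for S100a9, against 23.5 times for S100a4 and 1.69 times for S100a13. For S100a8 and S100a9 these medians, 255 and 78.4 CPM, lie in the background band described below, which is not read as expression. Of the 19 pairs of neighbours in a gene's order of levels, overlapping intervals joined 16 for S100a4, 15 each for S100a8 and S100a9, 12 each for S100a6 and S100a10 and 10 for S100a11. The 8 genes together took 25.6% of all UMIs in immature neutrophils, 22.3% in late neutrophils, 0.773% in cycling mesothelial cells and 0.0698% in Kupffer cells.

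**Figure D1:**
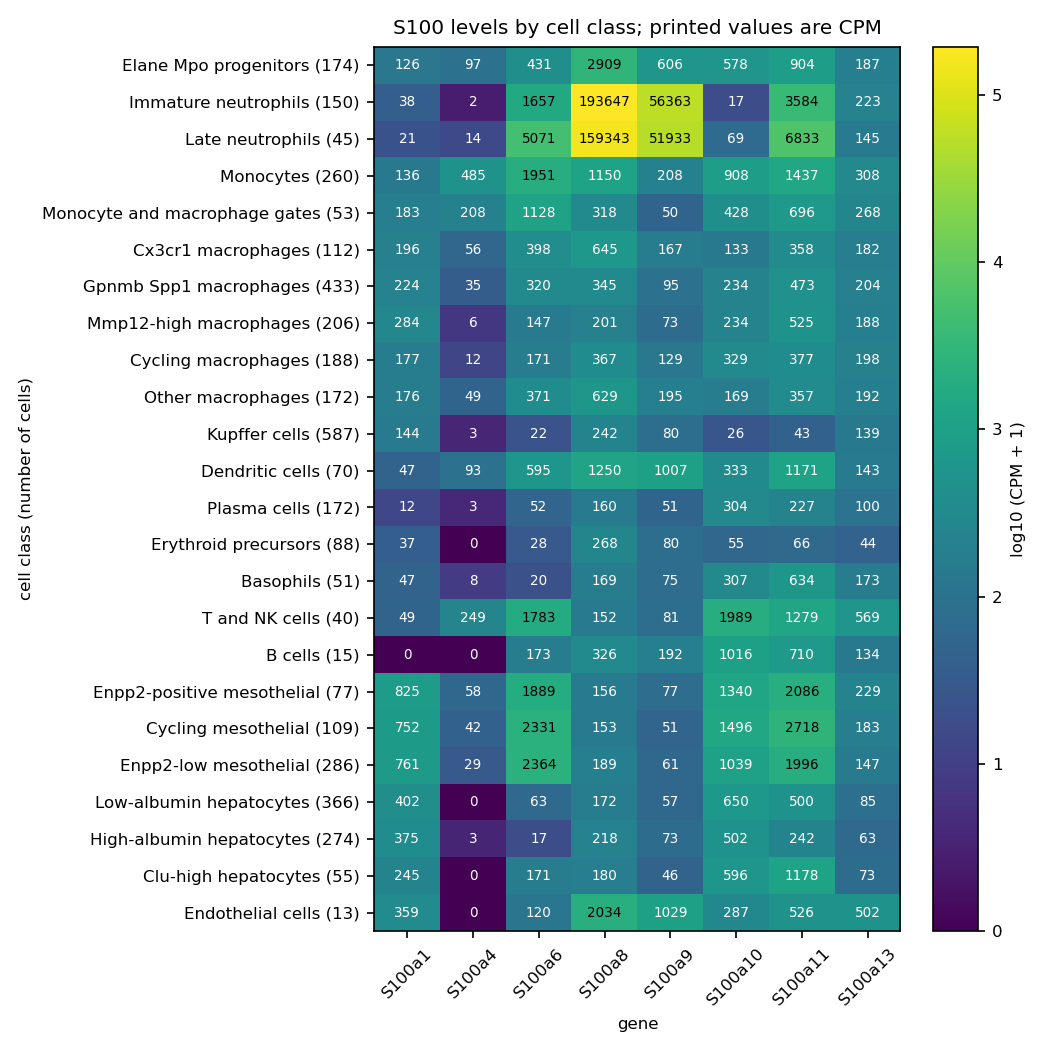
Level of the 8 S100 genes (columns) in each of the 24 cell classes (rows, with the number of cells), as CPM of summed counts; colour is log10 (CPM + 1). S100a8 and S100a9 reach 193647 and 56363 CPM in immature neutrophils, and S100a6, S100a10 and S100a11 are high in monocytes and mesothelial cells and low in Kupffer cells.

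S100a8 and S100a9 together took 25.0% of the UMIs of immature neutrophils and 21.1% of those of late neutrophils. Over the progenitor and neutrophil classes, S100a8 stood at 2909 CPM (95% interval 2833 to 2986) in 174 progenitors that carry Elane and Mpo. It stood at 193647 CPM (192590 to 194708) in 150 immature neutrophils rich in the secondary granule transcripts Ltf, Camp and Ngp. In 45 late neutrophils it stood at 159343 CPM (157294 to 161413). S100a9 stood at 606 CPM (572 to 642), 56363 CPM (55794 to 56937) and 51933 CPM (50766 to 53121) in the same classes. Both genes had a UMI in every one of the 195 neutrophils, and in all 195 still after each cell was thinned to 2000 UMIs.

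Cell by cell, the sum of S100a8 and S100a9 took 15.3% to 36.0% of a cell's UMIs in immature neutrophils, with a median of 25.9%. In late neutrophils the range was 0.508% to 41.6% and the median 25.3%, and 42 of 45 cells lay above 1%. Progenitors were far less even: the median cell held 0.0261%, the highest 16.9%, and 8 of 174 cells lay above 1%. In these progenitors 57.0% of the S100a8 UMIs and 71.9% of the S100a9 UMIs came from 3 cells. The median progenitor held S100a8 at 220 CPM. In the 8 classes outside the myeloid line given below, the median cell ran from 0 CPM in low-albumin and high-albumin hepatocytes to 189 CPM in erythroid precursors. Of the progenitors, 133 also passed the monocyte gate and 41 did not. S100a8 was at 1488 CPM in the 133 with the monocyte gate and at 7155 CPM in the 41 without it, where 3 cells held 87.2% of its UMIs.

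In 8 classes outside the myeloid line the 2 genes lay in a narrow band. In these plasma cells, erythroid precursors, mesothelial cells and hepatocytes (1427 cells), S100a8 lay between 153 and 268 CPM and S100a9 between 46.2 and 79.9 CPM. Classes under 50 cells are not part of the band: 15 B cells had 326 CPM S100a8 (17 UMIs) and 192 CPM S100a9 (10 UMIs), above it, and 13 endothelial cells were higher still. The share of cells with an S100a8 UMI was 46.7% to 81.7% there, and 23.4% to 43.2% at 2000 UMIs per cell; median depths were 3330 to 10154 UMIs there and 3422 in neutrophils. Kupffer cells, with 242 CPM S100a8 and 79.9 CPM S100a9, and Mmp12-high macrophages, with 201 and 73.0 CPM, fell within that band. It is called the background band below, and levels within it are not read as expression. Free RNA can give UMIs in cells that do not make the transcript, but whether it did so here was not tested.

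The share of S100a8 among the UMIs of the pair was 77.1% (77.0 to 77.3) in all neutrophils, 75.6% (72.4 to 78.5) in hepatocytes, 74.4% (71.4 to 77.2) in mesothelial cells, 75.9% (71.1 to 80.4) in plasma cells and 75.2% (72.1 to 78.1) in Kupffer cells. Within neutrophils the share was 77.5% (77.3 to 77.7) in immature and 75.4% (74.9 to 75.9) in late cells. These intervals do not overlap, but they cover counting error only and not the spread between cells. Of the late neutrophils, 3 cells held 10.9% of the S100a8 and 18.3% of the S100a9 UMIs. Progenitors, with 82.8% (81.8 to 83.7), and monocytes, with 84.7% (82.8 to 86.4), lay above the interval of all neutrophils. Cells with both the monocyte and the macrophage gate, with 86.3% (78.7 to 92.0), also lay above it. Cycling macrophages, with 73.9% (70.9 to 76.7), and Enpp2-positive mesothelial cells, with 67.0% (57.3 to 75.7), had intervals below it. In 70 dendritic cells it was 55.4% (51.4 to 59.3), where S100a8 stood at 1250 CPM and S100a9 at 1007 CPM, and 3 cells held 86.5% of the S100a8 and 95% of the S100a9 UMIs. The 13 endothelial cells (2034 CPM S100a8 and 1029 CPM S100a9) had a share of 66.4% (57.5 to 74.5), also below it. They likewise had 95.3% of each count in 3 cells.

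**Figure D2:**
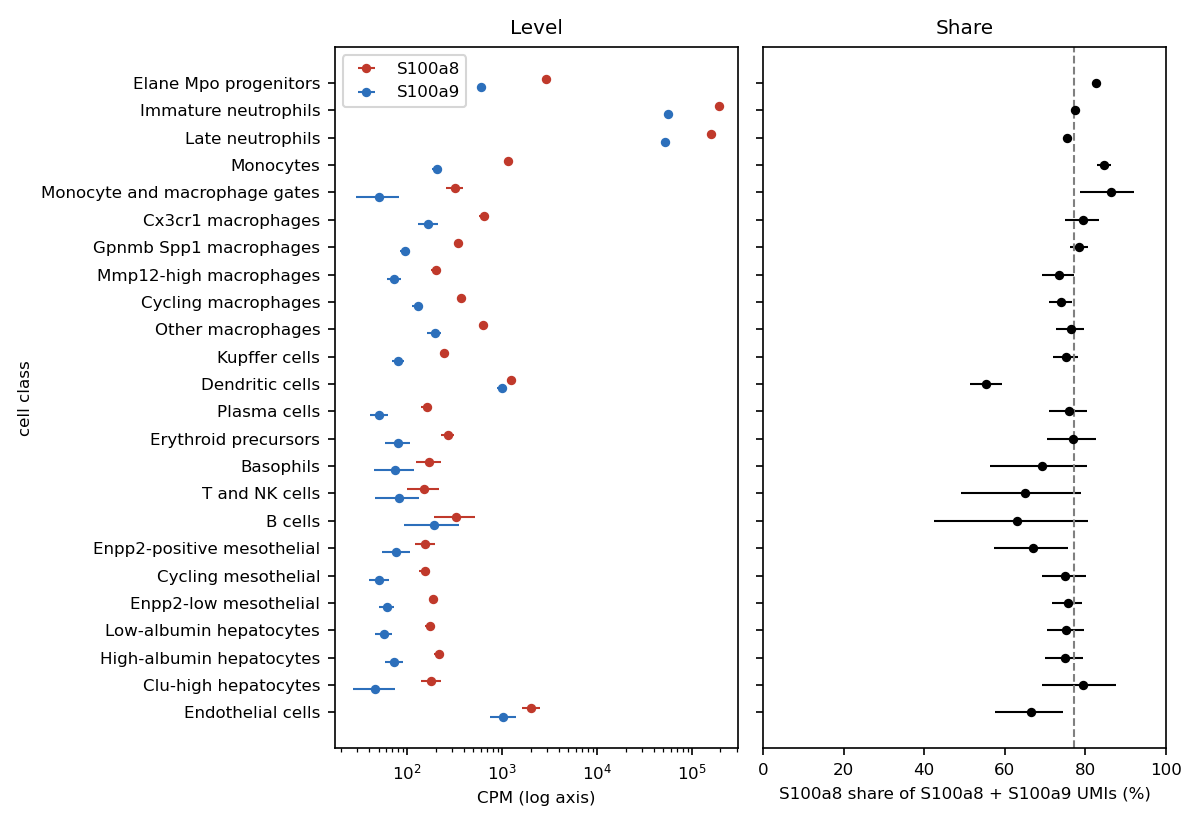
Left, level of S100a8 (red) and S100a9 (blue) in CPM on a log axis for each cell class; right, share of S100a8 among the UMIs of both genes in percent, with the dashed line at the 77.1% of all neutrophils. Bars are exact 95% intervals of counting error; plasma cells, erythroid precursors, cycling and Enpp2-low mesothelial cells and the hepatocyte classes have intervals that take in the dashed line, at 153 to 268 CPM S100a8, and dendritic cells lie below it.

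Immature neutrophils differed from the progenitors in 7 of the 8 genes. Here and below a gene is compared where both classes hold at least 30 of its UMIs in sum, and counts as higher or lower at 2-fold or more on log2 of (CPM + 5) over (CPM + 5). Of 7201 genes compared, 6.55% were higher and 53.7% lower in immature neutrophils, with a median of -1.11, whereas 4 S100 genes were higher and 3 lower, with a median of 1.09. S100a8 was 66.6-fold (64.8 to 68.4) and S100a9 93.0-fold (87.7 to 98.6) higher in immature neutrophils. With the cells of several gates assigned to their best gate, these came to 17.5-fold and 20.1-fold on the log2 scale with offset, so the choice of cells moved them far more than counting error did. S100a11 was at 3584 CPM in immature neutrophils and 904 CPM in progenitors, 3.96-fold (3.72 to 4.22) higher. S100a6 was at 1657 CPM in immature neutrophils and 431 CPM in progenitors, 3.85-fold (3.51 to 4.22) higher.

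In the other direction, S100a10 was at 16.6 CPM (11 UMIs) in immature neutrophils and 578 CPM in progenitors, 34.9-fold (19.4 to 70.1) lower. S100a4 gave 1 UMI in immature neutrophils and 187 in progenitors, a ratio of 0.0155 (0.00039 to 0.0874), and S100a1 was at 37.6 CPM in immature neutrophils and 126 CPM in progenitors, 3.34-fold (2.21 to 5.26) lower. S100a13 was at 223 CPM in immature neutrophils and 187 CPM in progenitors, a ratio of 1.19 (0.977 to 1.45). The progenitors that passed the monocyte gate carried most of the S100a4, with 128 CPM in the 133 with that gate and 4.14 CPM (2 UMIs) in the 41 without it. S100a6 showed the same split, with 556 CPM with the gate and 55.9 CPM without it, and so did S100a10, with 722 and 147 CPM. How far this mixture enters the contrast with immature neutrophils was not tested. Leaving S100a8 and S100a9 out of the total shifted the median of all genes by 0.32 and kept the 4 higher and the 3 lower genes.

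Between late and immature neutrophils, S100a6 was the member past 2-fold. It stood at 5071 CPM (4711 to 5452) in late and 1657 CPM (1561 to 1758) in immature neutrophils, 3.06-fold (2.78 to 3.36) higher, with a median cell of 5190 CPM in late and 1085 CPM in immature neutrophils. Of 2414 genes compared 13.7% were higher and 13% lower in late neutrophils, with a median of 0.10, and 5 S100 genes could be compared, with a median of -0.12. S100a11 was at 6833 CPM in late and 3584 CPM in immature neutrophils, 1.91-fold (1.77 to 2.05). S100a8 had a ratio of 0.823 (0.811 to 0.834) and S100a9 of 0.921 (0.899 to 0.945), while S100a13 had 0.651 (0.391 to 1.03). The median cells lay closer, with S100a8 at 193103 CPM in late and 199105 CPM in immature neutrophils. For S100a9 they were at 57965 and 57919 CPM. S100a10, with 10 UMIs in late and 11 in immature neutrophils, was under the count limit at a ratio of 4.17 (1.59 to 10.8). S100a1 and S100a4, with 3 and 2 UMIs in late neutrophils, were also under it.

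Lists of 6 granulocyte transcription factors, 18 partners and 9 receptors of the S100 proteins were set beside these values. Among 6 factors compared between immature neutrophils and progenitors, Cebpe and Cebpd were higher and Cebpa and Gfi1 lower. Cebpe, which drives secondary granule genes, stood at 69.1, 549 and 82.9 CPM in progenitors, immature and late neutrophils. Cebpb stood at 713, 674 and 2238 CPM in the same order and was higher in late than in immature neutrophils. Of 11 partners compared between immature neutrophils and progenitors, 3 were higher and 5 (Anxa6, Ahnak, Cacybp, Plgrkt and Atp2a2) lower, with a median of -0.84 beside -1.11 for all genes. Anxa1, which encodes the annexin bound by S100A11, was at 8044 CPM in immature neutrophils and 460 CPM in progenitors, and at 3489 CPM in late neutrophils. Anxa2, which encodes the annexin that S100A10 joins, was at 1000 CPM in immature neutrophils, in which S100a10 had 11 UMIs, and at 644 CPM in progenitors. Anxa2 was higher and Anxa1 lower in late than in immature neutrophils, among 6 compared. The urokinase receptor gene Plaur and the myosin gene Myh9, whose product S100A4 binds, were the other higher partners. Of 6 receptors, Cd33 was higher and Ly96, Bsg, Emb and Nptn lower in immature neutrophils than in progenitors, where 53.7% of all genes were lower; of 4 compared, Emb and Cd33 were higher in late than in immature neutrophils.

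Monocytes and Kupffer cells, the resident macrophages of the liver, lay far apart for 4 of the genes. S100a4 was at 485 CPM (446 to 527) in 260 monocytes and 2.72 CPM (7 UMIs) in 587 Kupffer cells, 179-fold (86.1 to 446) higher. S100a6 was at 1951 CPM (1872 to 2033) in monocytes and 21.7 CPM (16.4 to 28.2) in Kupffer cells, 89.8-fold (68.9 to 119) higher. S100a10 was at 908 CPM in monocytes and 25.6 CPM in Kupffer cells, 35.5-fold (27.6 to 46.2) higher. S100a11 was at 1437 CPM in monocytes and 43.5 CPM in Kupffer cells, 33.1-fold (27.3 to 40.4) higher. In all, 7 of the 8 genes were higher in monocytes and none lower, where 11.1% of 8768 genes were higher and 17.3% lower; the medians were 3.56 for the S100 genes and -0.04 for all genes.

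S100a8 was at 1150 CPM in monocytes and 242 CPM in Kupffer cells, 4.76-fold (4.32 to 5.24) higher, and S100a9 was 2.60-fold (2.15 to 3.15) higher. Both Kupffer levels lie in the background band, and 3 monocytes held 30.5% of the S100a8 and 51.4% of the S100a9 UMIs. S100a13 was 2.21-fold (1.91 to 2.57) higher in monocytes, and S100a1 had a ratio of 0.947 (0.782 to 1.14). At the level of single cells, 86.9% of monocytes and 0.852% of Kupffer cells held a UMI of S100a6, S100a10 and S100a11 at once, and 69.2% and 0% at 2000 UMIs per cell. Conversely 0.385% of monocytes (1 cell) and 73.9% of Kupffer cells had no UMI of S100a4, S100a6, S100a10 or S100a11.

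For S100a4, S100a6, S100a10 and S100a11, the macrophages outside the Kupffer class lay between monocytes and Kupffer cells. S100a4 was graded over cells that passed both the monocyte and the macrophage gate (208 CPM), Cx3cr1 macrophages (55.6 CPM), Gpnmb Spp1 macrophages (35.2 CPM) and Mmp12-high macrophages (6.23 CPM), with overlapping intervals in the Cx3cr1 (36.0 to 82.1) and Gpnmb Spp1 (28.7 to 42.7) classes. S100a6 followed the same order with 1128, 398, 320 and 147 CPM. S100a10 and S100a11 did not: S100a10 was at 428, 133, 234 and 234 CPM, and S100a11 at 696, 358, 473 and 525 CPM. S100a1 ran the other way, with 183, 196, 224 and 284 CPM, of which Mmp12-high macrophages (260 to 310) stood apart by their interval. Gpnmb, Spp1 and Trem2 mark the lipid-associated macrophages of scarred liver, and Mmp12 encodes macrophage elastase.

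**Figure D3:**
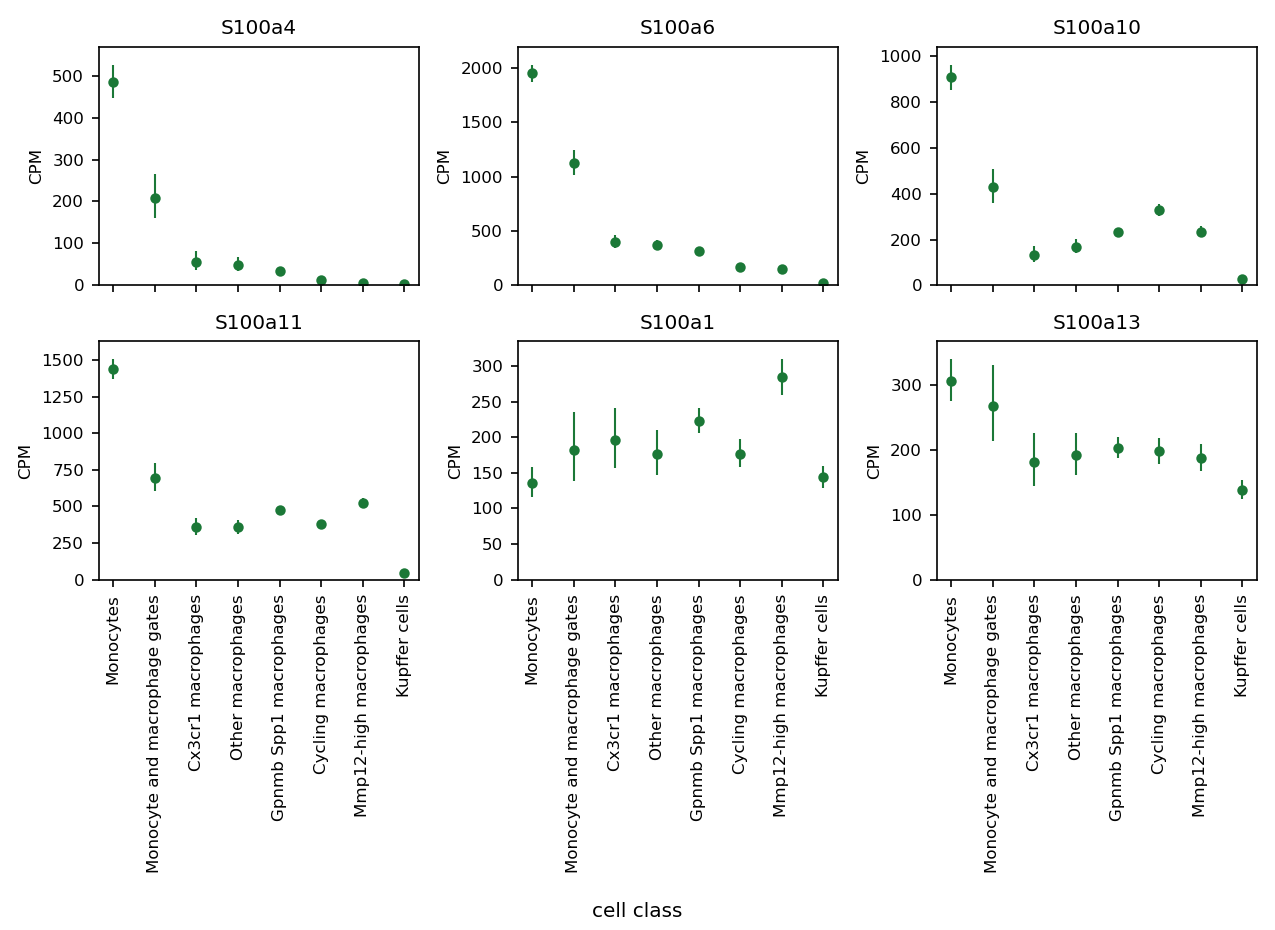
Level in CPM (linear axes from 0) of 6 S100 genes in monocytes, 6 macrophage classes and Kupffer cells; bars are exact 95% Poisson intervals of counting error. S100a4 and S100a6 are highest in monocytes (485 and 1951 CPM) and lowest in Kupffer cells (2.72 and 21.7 CPM). S100a10 and S100a11 lie between their monocyte and Kupffer levels in the other macrophage classes. S100a1 is highest in Mmp12-high macrophages (284 CPM).

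Set against Kupffer cells, 6 of the 8 genes were higher in Cx3cr1 macrophages, where 2.57% of 8053 genes were higher and 12.5% lower and the medians were 1.79 and -0.20. S100a4 was 20.5-fold (8.61 to 56.1), S100a6 18.3-fold (13.5 to 25.2), S100a11 8.24-fold (6.43 to 10.6) and S100a10 5.21-fold (3.61 to 7.51) higher in Cx3cr1 macrophages. S100a8 was 2.67-fold and S100a9 2.09-fold higher, but 3 of the 112 cells held 58.3% and 60.0% of their UMIs. With 1 more marker required by each gate, 3 genes counted: S100a8 (log2 ratio 0.65) and S100a9 (0.30) were under 2-fold, while S100a4 (2.50) had too few UMIs. In Gpnmb Spp1 macrophages 4 genes were higher than in Kupffer cells, where 3.98% of 9188 genes were higher and 13.1% lower and the medians were 1.5 and -0.25. These were S100a6 at 14.7-fold (11.2 to 19.6), S100a4 at 13-fold (6.07 to 33.0), S100a11 at 10.9-fold (8.97 to 13.3) and S100a10 at 9.13-fold (7.09 to 11.9). In Mmp12-high macrophages 3 genes were higher, where 4.61% of 8749 genes were higher and 14.7% lower, namely S100a11 at 12.1-fold (9.91 to 14.8), S100a10 at 9.13-fold (7.03 to 12.0) and S100a6 at 6.77-fold (5.06 to 9.21). The medians were 0.96 for the 7 S100 genes compared and -0.25 for all genes. S100a1 reached 1.98-fold (1.73 to 2.27) there, and S100a4 had too few UMIs (11 in Mmp12-high macrophages and 7 in Kupffer cells). No S100 gene was lower in any of the 3 macrophage classes, and these comparisons and that of monocytes share the same Kupffer cells.

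Anxa1, Anxa2 and Ahnak, whose giant scaffold protein binds the complex of S100A10 and annexin A2, lay the same way in these cells, while Anxa6 did not, with 90.9 CPM in monocytes and 100.5 CPM in Kupffer cells. Of 13 partners compared between monocytes and Kupffer cells, Anxa1, Anxa2, Ahnak and Plaur were higher in monocytes and Plgrkt and Il1a lower, with a median of 0.14. Anxa2 was at 1457 CPM in monocytes and 151 CPM in Kupffer cells, and at 1013 CPM in Mmp12-high macrophages. Ahnak was at 400 CPM in monocytes and 11.3 CPM in Kupffer cells. Anxa1, Anxa2 and Ahnak were also higher than in Kupffer cells in each of the 3 macrophage classes, in which 3 of 12, 4 of 13 and 5 of 13 partners were higher and Il1a was lower each time. Plau, the gene of the plasminogen activator urokinase, was at 66.2 CPM in Mmp12-high macrophages and 9.70 CPM in Kupffer cells.

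The receptor genes were split between monocytes and Kupffer cells, with a median of -0.74. Of 7 compared between monocytes and Kupffer cells, Emb, for embigin, a receptor of S100A9, was at 1151 CPM in monocytes and 10.5 CPM in Kupffer cells. Tlr4 was at 13.6 CPM in monocytes and 78.4 CPM in Kupffer cells, and Cd36, a scavenger receptor that binds the pair with fatty acids, was at 29.7 CPM in monocytes and 683 CPM in Kupffer cells. Cd36 reached 2563 CPM in Mmp12-high macrophages, where Tlr4 was lower than in Kupffer cells. Emb was higher and Cd33 lower than in Kupffer cells in Cx3cr1, Gpnmb Spp1 and Mmp12-high macrophages. Of 4 factors compared, Cebpb and Cebpd were higher in monocytes than in Kupffer cells, 0 passed 2-fold in Cx3cr1 macrophages, and Cebpd was lower in Gpnmb Spp1 and Mmp12-high macrophages. Ager, which encodes RAGE, had 15 UMIs and Mcam 21 UMIs in all kept cells, too few to compare.

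Mesothelial cells, which coat the liver surface, held large shares of several members. With 13.7% of all UMIs, the 472 mesothelial cells held 46.2% of the S100a6, 38.9% of the S100a1, 35.1% of the S100a10 and 34.1% of the S100a11 UMIs. S100a6 was at 1889 CPM (1767 to 2018) in 77 Enpp2-positive cells, 2331 CPM (2248 to 2417) in 109 cycling cells and 2364 CPM (2300 to 2430) in 286 Enpp2-low cells. S100a1 was at 825 CPM (745 to 912), 752 CPM (705 to 801) and 761 CPM (725 to 798) in the same classes, whose intervals overlap. S100a10 was at 1340, 1496 and 1039 CPM, and S100a11 at 2086, 2718 and 1996 CPM. S100a6, S100a10 and S100a11 were found together in 91.3% of the mesothelial cells, against 7.63% of the 695 hepatocytes. Median depth was 7222 UMIs in mesothelial cells and 3343 UMIs in hepatocytes. After every cell was thinned to 2000 UMIs, the shares were 70.8% of mesothelial cells and 2.88% of hepatocytes.

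No member passed 2-fold among the mesothelial classes. Between Enpp2-positive and Enpp2-low cells the count was 0 of 8 in each direction, where 4.06% of 8335 genes were higher and 6.91% lower; the medians were 0.21 for the S100 genes and 0.01 for all genes. Enpp2 encodes autotaxin, which makes lysophosphatidic acid. S100a4 had the largest ratio, 1.97 (1.21 to 3.13), with 57.7 CPM in Enpp2-positive and 29.3 CPM in Enpp2-low cells, and S100a13 followed with 1.56 (1.24 to 1.95). S100a6 had a ratio of 0.799 (0.743 to 0.858). Between cycling and Enpp2-low cells the count was again 0 in each direction, where 6.14% of 9195 genes were higher and 3% lower and the medians were 0.14 and 0.02. S100a10 had a ratio of 1.44 (1.35 to 1.53) and S100a11 of 1.36 (1.30 to 1.42), while S100a6 had 0.986 (0.942 to 1.03).

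Several partners did differ between Enpp2-positive and Enpp2-low mesothelial cells. Of 13 compared, Anxa6, Plat and Fgf1 were higher and Plgrkt lower in Enpp2-positive cells. Fgf1, whose release S100A13 assists, was at 227 CPM in Enpp2-positive and 31.6 CPM in Enpp2-low cells. Plat, for tissue plasminogen activator, was at 254 CPM in Enpp2-positive and 80.7 CPM in Enpp2-low cells. Plgrkt, for a plasminogen receptor, was at 29.9 CPM in Enpp2-positive and 69.7 CPM in Enpp2-low cells. Among 5 receptors, Bsg, for basigin, was lower, at 1002 CPM in Enpp2-positive and 2221 CPM in Enpp2-low cells. None of the 13 partners and 6 receptors compared passed 2-fold between cycling and Enpp2-low cells.

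In hepatocytes S100a10, S100a11 and S100a1 were the members above 300 CPM, at 589, 485 and 373 CPM over all 695 cells. S100a10 was at 650 CPM (611 to 691) in 366 low-albumin, 502 CPM (462 to 545) in 274 high-albumin and 596 CPM (520 to 680) in 55 Clu-high hepatocytes. S100a1 was at 402 CPM (372 to 434), 375 CPM (340 to 412) and 245 CPM (197 to 301) in the same classes. S100a4 gave 0 UMIs in low-albumin and Clu-high hepatocytes and 3 UMIs in high-albumin ones. The 0 of 366 low-albumin cells allows a share of cells with a UMI of up to 0.820%.

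S100a6 and S100a11 were the compared members that differed most between low-albumin and high-albumin hepatocytes. S100a6 was at 63.5 CPM (102 UMIs) in low-albumin and 16.5 CPM (19 UMIs) in high-albumin hepatocytes, 3.84-fold (2.34 to 6.65) higher. Only 13.4% of low-albumin and 5.47% of high-albumin cells had a UMI of it, and 3 cells held 33.3% and 36.8% of these UMIs. S100a11 was at 500 CPM in low-albumin and 242 CPM in high-albumin hepatocytes, 2.07-fold (1.80 to 2.38) higher. These 2 were the members past 2-fold, where 1.16% of 6699 genes were higher and 6.52% lower and the medians were 0.37 for 7 S100 genes and 0.11 for all genes. The call of S100a11 rested on the edge of the threshold and was lost in 6 of 10 alternative settings, in which its log2 ratio was between 0.86 and 1, against 1.04. Of the 640 hepatocytes in both classes, 233 lay near the albumin limit. In Clu-high hepatocytes S100a11 reached 1178 CPM (1070 to 1294) and S100a6 171 CPM (132 to 219), with 42.0% and 61.9% of these UMIs in 3 cells. Of the lists, 0 of 10 partners passed 2-fold between low-albumin and high-albumin hepatocytes, and Bsg was the 1 of 4 receptors that did, at 142 CPM in low-albumin and 373 CPM in high-albumin hepatocytes.

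Of the other S100 genes listed, 6 of 8 had fewer than 30 UMIs. S100a16 was at 318 CPM in Enpp2-positive and 186 CPM in Enpp2-low mesothelial cells and at 53.1 CPM in hepatocytes. S100g, which encodes the vitamin D dependent calbindin-D9k, was at 82.8 CPM in low-albumin and 33.0 CPM in high-albumin hepatocytes and past 2-fold. It had 1 UMI in all mesothelial cells.

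Lymphoid and other small classes added a further pattern. In 40 T and NK cells S100a10 was at 1989 CPM (1791 to 2203), S100a6 at 1783 CPM (1596 to 1987), S100a11 at 1279 CPM (1121 to 1453) and S100a4 at 249 CPM (183 to 333), while S100a8 stood at 152 CPM, near the background band. S100a13 was at 569 CPM (465 to 689) in these cells. Plasma cells held 304 CPM S100a10 and 227 CPM S100a11, but 12.2 CPM S100a1, its lowest level among the classes of at least 50 cells. Basophils held 634 CPM S100a11 and 307 CPM S100a10, with 19.7 CPM S100a6 (5 UMIs). Erythroid precursors had at most 66 CPM of any member other than S100a8 and S100a9, and no S100a4 UMI.

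S100a13 and S100a1 start next to each other and did not share a pattern. S100a13 was the flattest member, from 308 CPM (277 to 341) in monocytes to 44.4 CPM (28.7 to 65.6) in erythroid precursors, and 18 of the 19 neighbouring pairs in its order had overlapping intervals. S100a1 ran from 825 CPM in Enpp2-positive mesothelial cells to 12.2 CPM in plasma cells, with 15 of 19 neighbouring intervals overlapping. Over the 20 classes, Pearson's r of log2(CPM + 10) between S100a1 and S100a13 was 0.15. S100a8 and S100a9, whose GENCODE starts lie 26743 bases apart, had r of 0.98. These correlations describe 20 classes of 1 matrix that share libraries and may share free RNA. For S100a8 and S100a9 they take in the classes within the background band.

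**Figure D4:**
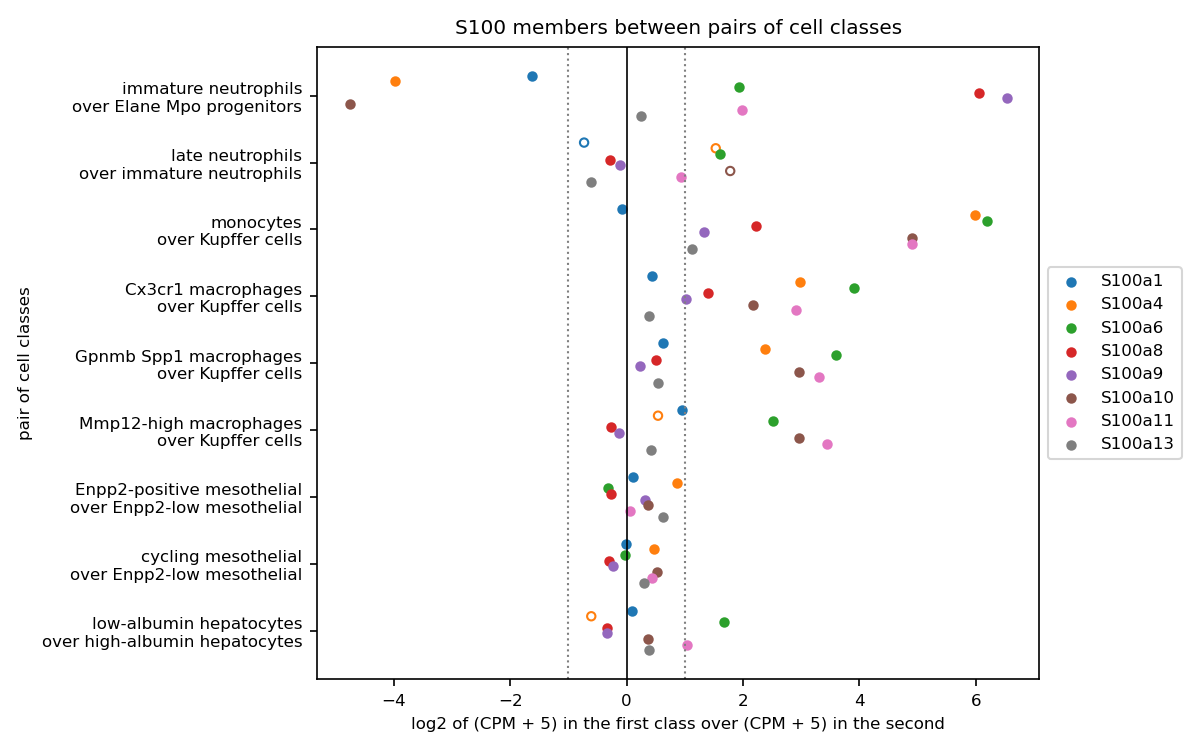
Log2 of (CPM + 5) in the first over (CPM + 5) in the second class for the 8 S100 genes (colours) in 9 pairs of cell classes (rows); open circles mark genes under 30 UMIs in both classes together and dotted lines 2-fold. The spread is widest for immature neutrophils over progenitors (-4.76 for S100a10 to 6.53 for S100a9), and no compared member passes 2-fold among mesothelial classes.

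The genes most like each member over the 20 classes were ranked among 8896 genes. After S100a9, S100a8 was most like Camp (r = 0.95), which served in the neutrophil gate, and Mrgpra2b (0.94). S100a9 was most like S100a8 and then the gating markers Ngp (0.97) and Camp (0.97). S100a11 was most like Anxa2 (0.88), S100a6 (0.81) and the vinculin gene Vcl (0.75). S100a6 was most like Mfsd6 (0.87), Socs3 (0.86) and Eps8 (0.83), and S100a4 was most like Naaa (0.85), Mcub (0.85) and Chsy1 (0.85). S100a1 was most like Rab12 (0.93), Nfic (0.92) and Ankrd40 (0.92), and S100a13 was most like Pkm (0.91), Arpc1b (0.90) and Flna (0.89). S100a10 was most like Ndufb11 (0.81), Spin1 (0.81) and Ywhae (0.81). Its r with Anxa2 was not among the highest 3.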

How the data were processed

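Liver cells were profiled on the Singleron microwell platform. The authors deposited raw UMI counts per gene and cell as sparse matrices. Per the submitters' processing notes the build was GRCm38; aligner, counter and cell calling remain not given in the sources used here. Kept cells had 200 or more genes and no more than 20% mitochondrial UMIs, 4616 of 4694, and no barcode occurred more than once. Each gate asked for a set number of distinct markers, such as 4 of 10 for mesothelial cells, 6 of 15 for neutrophils and 9 of 14 for hepatocytes. Kupffer cells needed 3 of 5 further markers. Immature neutrophils had at least 5% of their UMIs from Ltf, Camp and Ngp, and Enpp2-positive mesothelial cells at least 2 Enpp2 UMIs. The gate thresholds were set after the data were seen, and the members, lists and pairs were chosen with earlier results of these data known. Doublets were handled by leaving out 381 cells that passed several gates, and no doublet caller was run. Combinations kept were progenitor with monocyte or basophil (counted as progenitor and basophil), monocyte with macrophage (a class of its own), plasma with B cell (plasma), and dendritic with macrophage or mesothelial (macrophage and mesothelial).

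Intervals are at 95%, from the conditional binomial distribution for ratios and by the Clopper-Pearson method for shares. An offset of 5 CPM and a minimum of 30 UMIs over both classes were used, and a count of 0 was given a limit of 3 counts. Shares at equal depth were taken after thinning every cell to 2000 UMIs; the shallowest kept cell had more, so no cell was left out. Likeness used genes of at least 200 UMIs. All 8 members, every list gene past 2-fold and the 3 genes most like each member were to be named. The ratio code was tested on simulated data. The analysis used Python 3.11.15, numpy 2.4.6, scipy 1.17.1, pandas 2.3.3 and matplotlib 3.10.9.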

Additional observations from a re-analysis of the deposited data

Results flagged for a closer look

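Cells that passed both the macrophage and the neutrophil gate were left out of the main comparisons, and they carry a neutrophil signal. These 80 cells held S100a8 at 14100 CPM (13838 to 14411), with a median cell of 6141 CPM, against 153 to 268 CPM in the 8 classes outside the myeloid line. S100a8 made up 75% (74.2 to 75.7) of the UMIs of S100a8 and S100a9 there. The share was 77.1% (77.0 to 77.3) in all neutrophils and 75.4% (74.9 to 75.9) in the late ones. All cells left out for passing several gates held 21.7% of all S100a8 UMIs. Whether these barcodes hold 1 cell or several was not tested.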

How the results depend on the processing

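No value carries a replicate error, because the named data are 1 pooled matrix. No paired analysis was possible because the samples labelled CluKO cannot be told apart in that matrix. Every result was repeated under 10 alternative settings where they apply; the one that drops S100a8 and S100a9 from the total was chosen after seeing the data. Of the counts and shares, 177 stayed within their limits and 17 moved, and reversal was not a label they could get. Of the single levels and ratios, 744 were counted as unmoved, 28 levels left their counting interval and 12 ratios lost their call at 2-fold. The 744 include all 420 repeats of ratios that were not called, which were counted so even where they came to pass 2-fold. Of the 12 lost calls, 9 fell under 2-fold and 3 (S100a4 in Cx3cr1 macrophages) had too few UMIs. Keeping a call does not mean a like size: 14 of the 30 called ratios moved by over 1.5 times in some setting, and ratios that were not called changed sign in 21 of 420 repeats. With cells of several gates assigned, S100a8 and S100a9 were 10.9-fold and 6.59-fold higher in monocytes than in Kupffer cells, and S100a8 4.62-fold higher in Cx3cr1 macrophages. An offset of 20 CPM took S100a4 to 22.2-fold in monocytes, 3.33-fold in Cx3cr1 and 2.43-fold in Gpnmb Spp1 macrophages over Kupffer cells, S100a6 to 47.2-fold in monocytes and 10.0-fold in Cx3cr1 macrophages, and S100a4 and S100a10 to 5.45-fold and 16.3-fold lower in immature neutrophils than in progenitors. With 1 more marker per gate, S100a4 was 7.57-fold lower and S100a6 5.89-fold higher in immature neutrophils, and after thinning S100a4 was 24.0-fold lower. The cause of the changes was not tested. With 1 more marker per gate, 3 members were higher in Cx3cr1 macrophages than in Kupffer cells (S100a6, S100a10, S100a11) and 2 in late than in immature neutrophils (S100a6, S100a10). With cells of several gates assigned, 2 members were higher (S100a6, S100a10) and 1 lower (S100a1) in late neutrophils, 1 was lower in Enpp2-positive (S100a8) and 2 in cycling (S100a8, S100a9) than in Enpp2-low mesothelial cells. A minimum of 10 UMIs (adding S100a10) and a total without abundant gene groups (adding S100a11) each gave 2 higher members in late neutrophils. S100a6 was the 1 member higher in low-albumin than in high-albumin hepatocytes with 1 more marker, with cells of several gates assigned, with the mean of CPM over cells, after thinning, with an offset of 20 CPM and without the 5% deepest cells. After thinning to 2000 UMIs, 1 member (S100a9) was lower in cycling than in Enpp2-low mesothelial cells, 5 of 8 members kept their highest class and S100a8 made up 76.6% of the pair in neutrophils. The total without abundant gene groups shifted the median of all genes by -0.28 between immature neutrophils and progenitors, by 0.12 between Cx3cr1 macrophages and Kupffer cells and by 0.10 between late and immature neutrophils. Limits near class borders concern 32 of 363 mesothelial cells at 1 or 2 Enpp2 UMIs and 24 of 195 neutrophils at 3% to 8% secondary granule UMIs. Few UMIs limit S100a4 most, with 7 in Kupffer cells and 1 in immature neutrophils.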
